A study of Mus musculus with 10 samples.

Results

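The genes of the sarcomere and of the contractile machinery were followed in normal mouse liver and in 2 kinds of liver tumour. Members were chosen by a rule on gene symbols that used no measured value, though earlier results of these data were known by then. They were the numbered genes of the myosin heavy chain (Myh), myosin light chain (Myl), troponin (Tnnc, Tnni, Tnnt), tropomyosin (Tpm), myosin-binding protein C and H (Mybpc, Mybph), myomesin (Myom), myozenin (Myoz), tropomodulin (Tmod), leiomodin (Lmod) and alpha-actinin (Actn) families. Mylpf, Acta1, Acta2, Actc1, Ttn, Neb, Nebl, Des, Ldb3 and Tcap were added by name. The rule found 56 genes among 16697 gene entries. Each was placed by textbook knowledge in the muscle type where its product is best known, which gave 12 non-muscle, 4 smooth muscle, 3 embryonic, 8 fast skeletal, 8 slow skeletal and 5 cardiac genes. A further 15 serve several muscle types, and Tpm3-rs7, a gene related in sequence to Tpm3, matched the rule by its symbol alone. Several well-known genes of these families, among them Myh2, Myh6, Myh7, Myl2, Myl7, Tnnc2 and Mybpc2, were not analysed here.

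A sarcomere is the repeating contractile unit of striated muscle. Myosin heavy chains, each carrying an essential and a regulatory light chain, form the thick filament and pull on thin filaments of actin, while tropomyosin and the troponin complex (the calcium sensor troponin C, the inhibitory troponin I and the tropomyosin-binding troponin T) set when they may do so. The Z-disc, built on alpha-actinin, anchors the thin filaments, the M-band ties the thick filaments together, and titin spans the distance between them. Most components exist as isoforms, so that developing, fast, slow and cardiac fibres each use a partly different set. Hepatocytes do not build sarcomeres. They contract the cell cortex and divide with non-muscle myosin, while smooth muscle isoforms in the liver belong to vessel walls and to activated stellate cells.

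Gene expression had been measured by RNA sequencing in normal livers of wild-type mice (NL, n = 4), in liver tumours that the oncogene c-MYC induced on its own (c-MYC, n = 3), and in liver tumours induced with c-MYC together with FOXO1AAA (c-MYC/FOXO1AAA, n = 3). FOXO1AAA is a FOXO1 transcription factor that AKT cannot switch off because its phosphorylated residues are replaced. Plasmids with the broadly active EF1α promoter were delivered to hepatocytes by hydrodynamic tail vein injection, with a sleeping beauty transposase that inserts them into the genome, and c-MYC mice received an empty pT3 plasmid in place of FOXO1AAA. A description of the experiment in the study also names MCL1 in the control mixture, while the labels of these samples do not, and the strain is C57BL/6 in the sample labels and FVB in the protocol. Ages are not given in the labels. The comparison of the tumour groups addresses what active FOXO1 changes in c-MYC tumours. In bulk tissue a gene made by fewer cells cannot be told apart from a gene made at a lower level per cell. Nothing in the labels says how many mice each library came from, so the p-values measure the spread between these libraries.

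Reads in listed genes numbered 13123719 to 20547746 per library. Foxo1 was at 5.16 to 7.86 FPKM (fragments per kilobase of gene and per unit of library depth, a level that allows for gene length) in the 7 NL and c-MYC libraries and at 70.1 to 95.6 FPKM in the 3 c-MYC/FOXO1AAA libraries. The summed level of 6 hepatocyte genes (Alb, Ttr, Apoa1, Apoc3, Tat and Cps1) was 78036 to 86075 FPKM in NL, 3165 to 4975 in c-MYC and 841 to 1519 in c-MYC/FOXO1AAA. Tumour libraries thus kept hepatocyte transcripts at a small share of the level in normal liver. All groups share the authors' scaling, whose factors were 0.649 to 0.684 in NL, 1.256 to 1.295 in c-MYC and 1.454 to 1.502 in c-MYC/FOXO1AAA, and rescaling each library to the same FPKM total moved the median log2 difference over all genes from 0.08 to 1.01 in c-MYC versus NL and from 0.03 to 0.20 between the tumour groups.

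Contractile genes differed widely between the tumour groups. The 11 embryonic and fast skeletal genes were at 2.63 FPKM or less in each NL and c-MYC library, and among them Mylpf reached 90 FPKM in c-MYC/FOXO1AAA. Slow genes such as Tnnc1 and Tnni1 were already read in c-MYC tumours. The FPKM of all 56 genes summed in NL to 420 ± 32.4 (SD, n = 4), in c-MYC tumours to 608 ± 41.6 and in c-MYC/FOXO1AAA tumours to 1531 ± 85.1 (SD, n = 3 each), and the groups did not overlap. Non-muscle genes made up 76.3% ± 0.78 of this sum in NL, 60.4% ± 0.981 in c-MYC and 28.9% ± 2.46 in c-MYC/FOXO1AAA (SD, same n), while their own sum was 321 ± 25.5, 367 ± 25.2 and 441 ± 24.9 FPKM. A mean of at least 10 FPKM was reached by 7 genes in NL, 10 in c-MYC and 24 in c-MYC/FOXO1AAA, while 10 genes in NL, 5 in c-MYC and 1 in c-MYC/FOXO1AAA had no read in any library. Myh8, Myoz2 and Tmod2 had no read outside the c-MYC/FOXO1AAA tumours.

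**Figure D1:**
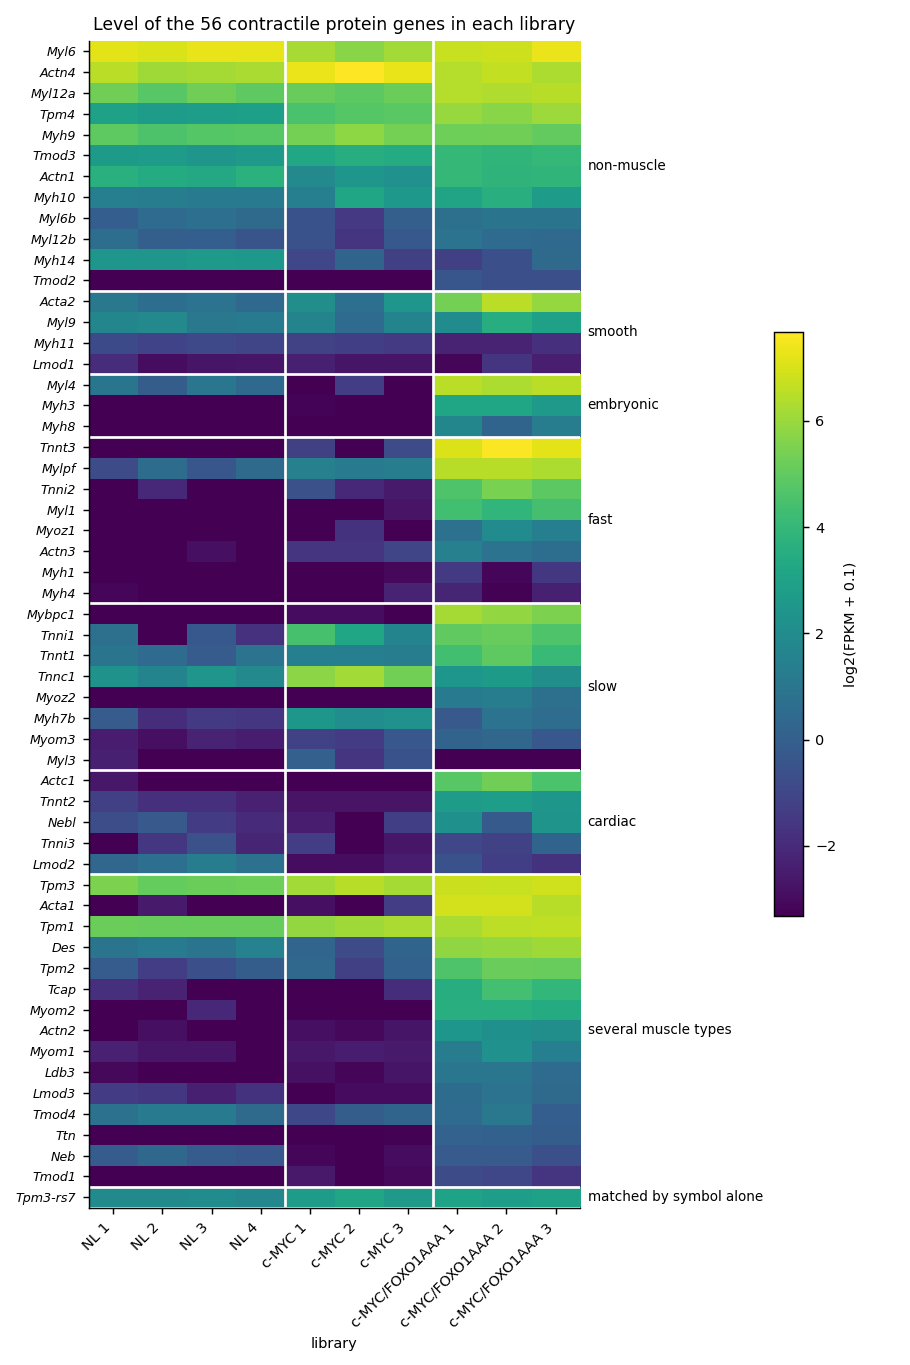
Level of each of the 56 genes (rows, in their classes) in each of the 10 libraries (columns) as log2(FPKM + 0.1), from dark (no reads) to yellow (high). The embryonic and fast rows are darker in the NL and c-MYC columns than in the 3 c-MYC/FOXO1AAA columns, apart from Myh1 and Myh4, with Myl4 in NL and Mylpf at low levels outside c-MYC/FOXO1AAA.

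Of the 56 genes, 44 reached 1 FPKM in at least 3 libraries and were tested together with all other genes that did (14017 in all, limma treat for a change above 1.5-fold, Benjamini-Hochberg adjusted p under 0.05). Because each tumour group has 3 libraries, a gene read in 1 tumour group alone could enter the test through that group, so counts over the tested genes describe them and no more. In c-MYC versus NL, 10 were higher and 7 lower, against 24.5% and 23.6% of all tested genes, and rescaling every library to 1 common FPKM sum gave 22 and 3, where 50.4% and 13.5% of all tested genes were called. In c-MYC/FOXO1AAA versus c-MYC, 29 were higher and 3 lower, against 15.9% and 12.7% of all tested genes. The 3 lower genes were Tnnc1, Myh7b and Actn4, and their count was 1 without NL 3, NL 4, c-MYC 2, c-MYC/FOXO1AAA 1 or c-MYC/FOXO1AAA 3. In c-MYC/FOXO1AAA versus NL, 33 were higher and 2 lower, against 31.2% and 26.6%. The comparisons share libraries and are given side by side.

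With no filter on low values, all 56 genes could be tested among 16697. Then 12 were higher and 8 lower in c-MYC versus NL (22.5% and 22.3% of all genes), and 35 rose while 4 fell from c-MYC to c-MYC/FOXO1AAA (17.2% and 11.6% of all genes). The median log2 fold change of the 56 genes in this fit was 0.34 in c-MYC versus NL, where it was 0.06 over all genes, and 2.65 in c-MYC/FOXO1AAA versus c-MYC, where it was 0.07 over all genes. With genes of no read in a group set to the bound that 3 reads allow, the medians were 0.23 and 2.65. Fold changes are on the deposited log2 scale with its prior count of 2 reads, which understates the change of genes near 0, and bounds and intervals on reads cover counting error only.

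The classes differed in where they changed. All 3 embryonic genes and all 6 tested fast genes exceeded their c-MYC levels in c-MYC/FOXO1AAA, with median log2 fold changes of 8.41 over the 3 and 4.66 over the 8 fast genes. Apart from Myl4 and Mylpf, these genes entered the test only through c-MYC/FOXO1AAA, so their count was largely set by the filter. Of all tested genes, 15.9% were higher and 12.7% lower in this comparison. All 3 tested cardiac genes and 9 of 12 tested genes of several muscle types were higher as well, with medians of 3.39 over 5 and 5.32 over 15. Apart from Lmod2 and Des, those called genes passed the filter only through c-MYC/FOXO1AAA. Their counts too were largely set by the filter. Slow genes were mixed, with 3 higher and 2 lower of 6 tested and a median of 1.49 over 8. Of the 3 higher, Mybpc1 and Myoz2 passed the filter only through c-MYC/FOXO1AAA. Among non-muscle genes 4 were higher and 1 lower of 11 tested, with a median of 1.07 over 12, and in the smooth class 1 of 2 tested genes was higher, with a median of 0.85 over 4.

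Among the embryonic, fast and slow classes, the slow genes had the highest summed level in c-MYC tumours. Their summed level was 6.66 ± 1.93 FPKM in NL (SD, n = 4), and among tumours 74.4 ± 20 with c-MYC alone and 122 ± 22.7 with FOXO1AAA added (SD, n = 3 each). Fast genes summed to 1.01 ± 0.489 (SD, n = 4), 3.38 ± 0.468 (SD, n = 3) and 302 ± 40.5 FPKM (SD, n = 3) in the same order, and embryonic genes to 1.46 ± 0.495, 0.104 ± 0.172 and 97.3 ± 7.73 FPKM with the same n. The slow sums of the tumour groups were close, with 86 FPKM as the highest c-MYC library and 95.5 FPKM as the lowest c-MYC/FOXO1AAA library, whereas the fast and embryonic sums were far apart. Different genes led the slow sums, with Tnnc1 at a mean of 54.8 FPKM in c-MYC and 5.27 in c-MYC/FOXO1AAA. Mybpc1 was at 0.0191 and 59 FPKM in the same order. Class sums also depend on the gene lengths used, which are given below for Mybpc1, Tnnt3 and Myl4.

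**Figure D2:**
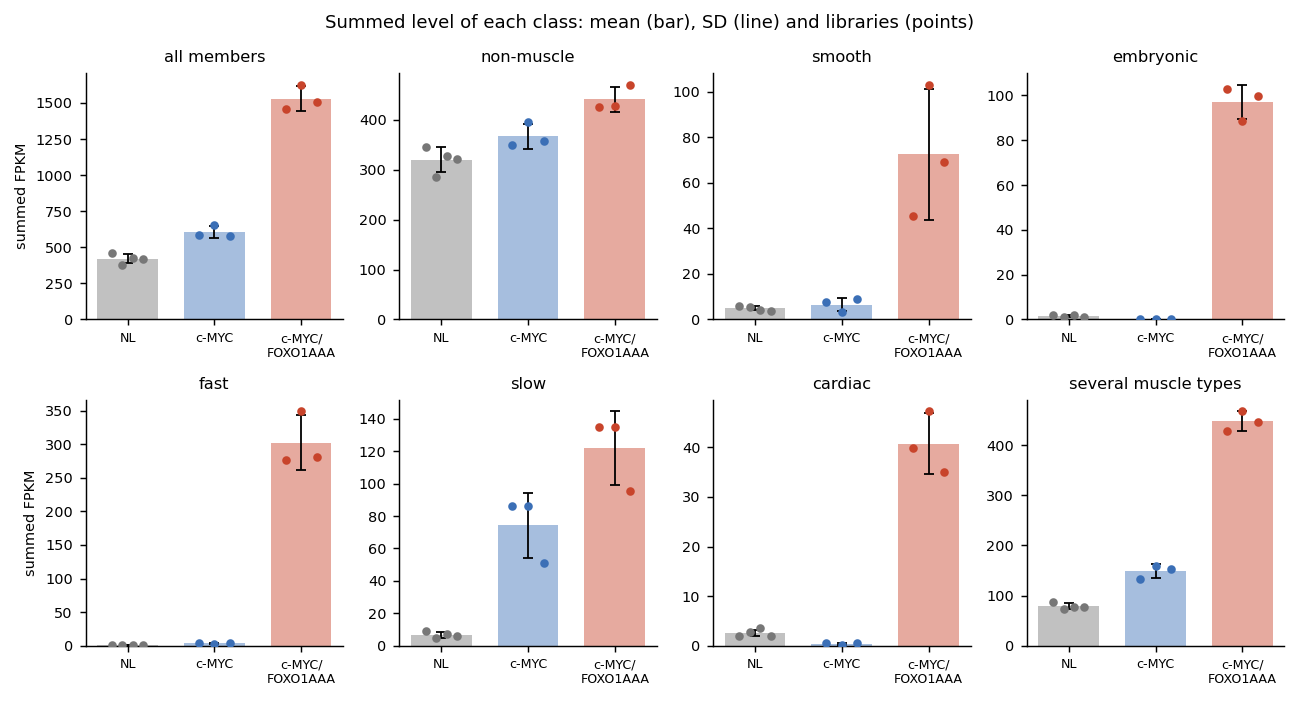
Summed FPKM of all 56 genes and of each of 7 classes in NL, c-MYC and c-MYC/FOXO1AAA, with bars for the mean, lines for the SD and points for the libraries (n = 4, 3 and 3). Each panel has its own vertical axis from 0. The fast panel rises from 3.38 FPKM in c-MYC to 302 FPKM in c-MYC/FOXO1AAA, while the slow panel holds 74.4 FPKM in c-MYC already.

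The letters before the gene starts are shown for 7 genes because they cover the opposite patterns described below, with Acta1, Actc1, Myh8, Myh3 and Mylpf high in c-MYC/FOXO1AAA and Tnnc1 and Myh7b high in c-MYC. Each line gives the 200 bases before the start of the gene from RefSeq on GRCm38.p6, 5′ to 3′ on the strand of the gene. Capitals mark matches to the CArG box (the DNA element of serum response factor), to the MEF2 site (the element of the myocyte enhancer factor 2 proteins) or to CANNTG (the E-box read by myogenic and other basic helix-loop-helix factors), on either strand.
Acta1 (chr8:123894776-123894975, minus strand): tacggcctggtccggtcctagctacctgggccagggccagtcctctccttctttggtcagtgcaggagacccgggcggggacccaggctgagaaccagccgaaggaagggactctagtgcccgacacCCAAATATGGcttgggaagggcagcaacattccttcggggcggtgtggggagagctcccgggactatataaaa
Actc1 (chr2:114052876-114053075, minus strand): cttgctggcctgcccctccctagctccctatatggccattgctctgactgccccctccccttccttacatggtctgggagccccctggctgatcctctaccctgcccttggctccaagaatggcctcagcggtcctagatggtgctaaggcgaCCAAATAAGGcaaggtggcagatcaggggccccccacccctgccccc
Myh8 (chr11:67276924-67277123, plus strand): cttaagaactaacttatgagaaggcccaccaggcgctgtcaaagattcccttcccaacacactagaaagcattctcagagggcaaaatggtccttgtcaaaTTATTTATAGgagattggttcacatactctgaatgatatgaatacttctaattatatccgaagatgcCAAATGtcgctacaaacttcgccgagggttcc
Myh3 (chr11:67078100-67078299, plus strand): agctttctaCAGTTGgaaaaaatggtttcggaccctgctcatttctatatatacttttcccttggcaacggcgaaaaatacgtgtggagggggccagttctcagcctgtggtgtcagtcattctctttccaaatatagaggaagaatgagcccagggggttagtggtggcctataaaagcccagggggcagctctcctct
Mylpf (chr7:127211408-127211607, plus strand): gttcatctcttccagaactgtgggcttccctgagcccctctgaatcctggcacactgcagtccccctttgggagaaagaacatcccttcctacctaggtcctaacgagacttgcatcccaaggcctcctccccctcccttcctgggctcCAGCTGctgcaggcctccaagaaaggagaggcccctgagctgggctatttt
Tnnc1 (chr14:31208112-31208311, plus strand): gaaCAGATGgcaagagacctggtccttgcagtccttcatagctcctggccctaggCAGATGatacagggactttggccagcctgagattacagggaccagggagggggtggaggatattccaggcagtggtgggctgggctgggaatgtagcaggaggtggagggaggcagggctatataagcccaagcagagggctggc
Myh7b (chr2:155611043-155611242, plus strand): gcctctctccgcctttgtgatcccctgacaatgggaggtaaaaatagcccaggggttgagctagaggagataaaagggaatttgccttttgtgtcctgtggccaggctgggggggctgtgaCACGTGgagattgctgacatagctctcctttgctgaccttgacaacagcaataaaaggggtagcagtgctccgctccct

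RefSeq windows were at hand for 45 of the 56 genes, some with several starts, which gave 54 windows. Tnnt3 and Tnni2 were among the 11 genes with no entry. In the 250 bases before the start, a CArG box was present in 10 of 54 windows (18.5%), against 1.47% of all 32851 windows of that length, and Acta1 and Actc1 carry theirs starting 73 and 47 bases before the start. A MEF2 site was present in 6 of 54 (11.1%), against 2.92% of all windows, and that of Myh8, which overlaps a TATAAA on the same letters, starts 99 bases before the start. CANNTG was present in 42 of 54 (77.8%), against 66.2% of all windows. CACGTG, the E-box form that MYC and MAX bind and a special case of CANNTG, was present in 3 of 54 (5.56%), against 6.02%, and the 3 are in Myh7b (79 bases before the start), Actn2 (48 and 84 bases) and Myl12a (50 bases). GTAAACA, a letter string of forkhead sites, was in none of the 54 windows and in 3.17% of all. Genes not shown carry these elements too. Myl3, highest in c-MYC and unread in c-MYC/FOXO1AAA, has a CArG box starting 85 bases before the start. Myh4 has a CArG box (104 bases) and a MEF2 site (182 bases), and Myh1 has a MEF2 site (211 bases), while both genes stayed near the floor. The matches describe letters in a window, were not tied to binding and were not tested against the levels.

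Myosin heavy chains are the motors of the thick filament. Myh3 (ENSMUSG00000020908, chr11:67078300-67102291), the embryonic heavy chain, was read at 8.71, 8.7 and 5.84 FPKM in the 3 c-MYC/FOXO1AAA libraries, at 0.00909 FPKM (1 read) in c-MYC 1 and with no read in the other 6 libraries. All c-MYC/FOXO1AAA libraries lay far above the rest. The 3530 reads against 1 gave a ratio of 2646 (95% counting interval 475 to 104547), with a log2 fold change of 8.41 ± 0.31 (SE; adjusted p = 2.99e-08 in limma). Myh8 (chr11:67277124-67308634), the perinatal heavy chain, was read at 3.24, 1.07 and 2.34 FPKM in c-MYC/FOXO1AAA and not at all elsewhere, which is at least 242-fold higher than in c-MYC (log2 fold change 6.72 ± 0.40, adjusted p = 5.06e-07).

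Adult fast heavy chains lie between these genes on chromosome 11, in the order Myh3, Myh1, Myh4 and Myh8. Myh1, the IIx heavy chain, had 39, 2 and 29 reads in c-MYC/FOXO1AAA (0.263, 0.0111 and 0.246 FPKM) and 2 reads over the 3 c-MYC libraries. Myh4, the IIb heavy chain, had 17, 1 and 11 reads in c-MYC/FOXO1AAA (0.117, 0.00566 and 0.0949 FPKM) and 12 reads in c-MYC 3 alone. Neither passed the filter, the tumour groups overlapped for both, and the library c-MYC/FOXO1AAA 2, the deepest of all, held the fewest reads of both. In the unfiltered fit Myh1 passed the threshold narrowly (log2 fold change 2.43 ± 0.73 against c-MYC, limma adjusted p = 0.05 when rounded, and 2.75 ± 0.68 against NL, adjusted p = 0.00961), with 70 reads against 2 in c-MYC (ratio 26.2, 95% counting interval 7 to 221) and none in NL (at least 12.3-fold), and its exons overlap Myhas. Myh4 was not called between the tumour groups (0.98 ± 0.79, adjusted p = 0.733). These adult genes stayed near the floor in the same libraries that carried 197 or more reads of each of their embryonic and perinatal neighbours.

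Myh7b, a heavy chain gene of slow and cardiac muscle, went the other way. Its level was 0.779, 0.172, 0.266 and 0.235 FPKM in NL, 5.5, 4.05 and 4.62 FPKM in c-MYC, and 0.751, 1.72 and 1.44 FPKM in c-MYC/FOXO1AAA. It was higher in c-MYC than in NL (log2 fold change 3.86 ± 0.47, limma adjusted p = 7.15e-05). In c-MYC/FOXO1AAA it lay below its c-MYC level by a narrow margin (log2 fold change -1.91 ± 0.50, adjusted p = 0.042), and leaving out any of 7 of the 10 libraries ended that call, among them c-MYC/FOXO1AAA 1 (-1.56, adjusted p = 0.157). Its exons overlap those of Trpc4ap, and reads of the pair could be mixed if counting ignored strand.

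By these levels, Myh7b made up 99% ± 1.52 (SD, n = 3) of the sarcomeric heavy chain FPKM in c-MYC, within a sum of 4.77 ± 0.73 FPKM. The sum covers Myh1, Myh3, Myh4, Myh7b and Myh8 alone, since Myh2, Myh6 and Myh7 were not analysed here. In c-MYC/FOXO1AAA the sum was 11.5 ± 1.56 FPKM (SD, n = 3), of which Myh3 took 66.9% ± 8.48, Myh8 19.2% ± 8.57, Myh7b 11.7% ± 5.17, Myh1 1.53% ± 1.26 and Myh4 0.631% ± 0.505. Myh3 held the largest share in each of the 3 libraries, from 58.7% to 75.6%. Heavy chains of smooth muscle and non-muscle cells did not follow. Myh11, the smooth muscle heavy chain, stayed under 0.5 FPKM in all libraries, at 0.263 to 0.351 FPKM in c-MYC and 0.111 to 0.181 FPKM in c-MYC/FOXO1AAA.

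Non-muscle heavy chains, which drive cytokinesis and cortical tension, were led by Myh9 in every group (77.6% ± 1.46, 88.4% ± 4.41 and 78.9% ± 3.13 of their summed FPKM in NL, c-MYC and c-MYC/FOXO1AAA). Myh9 levels of 41.1 to 56.2 FPKM in c-MYC and 32.8 to 38.6 FPKM in c-MYC/FOXO1AAA did not differ past the threshold (log2 fold change -0.33 ± 0.14). Myh14, the third non-muscle heavy chain, was at 5.43, 5.14, 6.03 and 5.75 FPKM in NL, 0.405, 1.05 and 0.32 in c-MYC and 0.327, 0.534 and 1.29 in c-MYC/FOXO1AAA. Both tumour groups lay below normal liver for this gene, and they overlapped each other. It was lower in c-MYC than in NL (log2 fold change -3.39 ± 0.47, limma adjusted p = 0.00024) and in c-MYC/FOXO1AAA than in NL (-3.15 ± 0.47, adjusted p = 0.00033). Myh10 was higher in c-MYC/FOXO1AAA than in NL (1.89 ± 0.36, adjusted p = 0.00482) and did not pass the threshold between the tumour groups (0.79 ± 0.39, adjusted p = 0.691).

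Essential light chains stabilise the lever arm of myosin. Myl4, the embryonic and atrial form, was read at 91.4, 78.8 and 91.7 FPKM in c-MYC/FOXO1AAA, at 0.302 FPKM (5 reads) in c-MYC 2 with none in the other c-MYC libraries, and at 1.85, 0.845, 1.86 and 1.27 FPKM in NL. Normal liver therefore held a low level, c-MYC tumours a lower one and c-MYC/FOXO1AAA tumours the highest, with no overlap between any groups. Myl4 was lower in c-MYC than in NL (log2 fold change -2.94 ± 0.41, limma adjusted p = 0.000302) and rose from c-MYC to c-MYC/FOXO1AAA (8.77 ± 0.44, adjusted p = 1.61e-07). Myl1, the fast form, was at 19.9, 14.9 and 21.2 FPKM in c-MYC/FOXO1AAA with 1 read in all other libraries together (7.23 ± 0.28 against c-MYC, adjusted p = 3.4e-08). Myl3, the slow and ventricular form, had 16, 4 and 10 reads in c-MYC (0.93, 0.227 and 0.581 FPKM), 1 read in NL and none in c-MYC/FOXO1AAA. The 30 reads in c-MYC make it at least 13.3-fold higher there, in a gene that did not pass the filter and whose exons overlap Pth1r.

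Myl6, the essential light chain of non-muscle and smooth muscle myosin and the non-muscle member with the highest mean over all libraries, was at 148, 130, 157 and 151 FPKM in NL, 74.2, 52.6 and 69.6 in c-MYC and 108, 112 and 160 in c-MYC/FOXO1AAA. It was lower in c-MYC than in NL (log2 fold change -1.17 ± 0.16, adjusted p = 0.00509), a call that ended when libraries were brought to the same FPKM total (-0.25, adjusted p = 1). Between the tumour groups it did not pass (0.94 ± 0.17, adjusted p = 0.0968), though the groups did not overlap. Myl6b, its close relative, was at 0.584, 0.259 and 0.902 FPKM in c-MYC and 1.58, 1.76 and 1.79 FPKM in c-MYC/FOXO1AAA. That call (1.5 ± 0.35, limma adjusted p = 0.0459) was lost without any of 8 of the 10 libraries, with an adjusted p of up to 0.159 (without c-MYC 2). In c-MYC/FOXO1AAA, Myl6 gave 53.7% ± 4.6 of essential light chain FPKM, Myl4 37.6% ± 3.96 and Myl1 7.98% ± 0.921 (SD, n = 3), whereas Myl6 gave 98.1% ± 0.357 in c-MYC. The Myl4 values rest on a length of 879 bases where its longest transcript has 3273, and with the longest transcript of each gene the shares were 61.2%, 21% and 16.6% in the same order.

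Regulatory light chains carry the phosphorylation site that switches smooth and non-muscle myosin. Mylpf, the fast skeletal form, was at 0.473, 1.38, 0.669 and 1.31 FPKM in NL, 2.63, 2.29 and 2.42 in c-MYC and 90, 89.1 and 78.5 in c-MYC/FOXO1AAA. The 3 groups did not overlap, and the rise between the tumour groups was large (log2 fold change 5.05 ± 0.30, limma adjusted p = 6.85e-07). The smaller rise from NL to c-MYC (1.32 ± 0.28, adjusted p = 0.0278) was lost without NL 1, NL 3, c-MYC 1 or c-MYC 3, with an adjusted p of up to 0.0732. Myl12a, a non-muscle form, was at 34.5, 29.9 and 37.1 FPKM in c-MYC and 86.3, 80.7 and 88.8 FPKM in c-MYC/FOXO1AAA (1.33 ± 0.14, adjusted p = 0.000884). Its exons overlap Myl12b and Myom1, and its NL level of 28.4 to 39.4 FPKM was that of c-MYC. Mylpf gave 6.28% ± 0.615 and Myl12a 86.4% ± 2.06 of regulatory light chain FPKM in c-MYC, and 47.6% ± 2.69 and 47.3% ± 3.07 in c-MYC/FOXO1AAA (SD, n = 3). With the longest transcript of each gene as the length, these last shares were 65.8% and 27.2%, so that their order depends on the length while the gain of Mylpf does not. Myl2 and Myl7, not analysed here, are outside these shares. Myl9, the smooth muscle form, was at 3.96, 11.4 and 7.82 FPKM in c-MYC/FOXO1AAA and 1.32 to 3.04 in c-MYC and did not pass (1.58 ± 0.42, adjusted p = 0.0641).

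**Figure D3:**
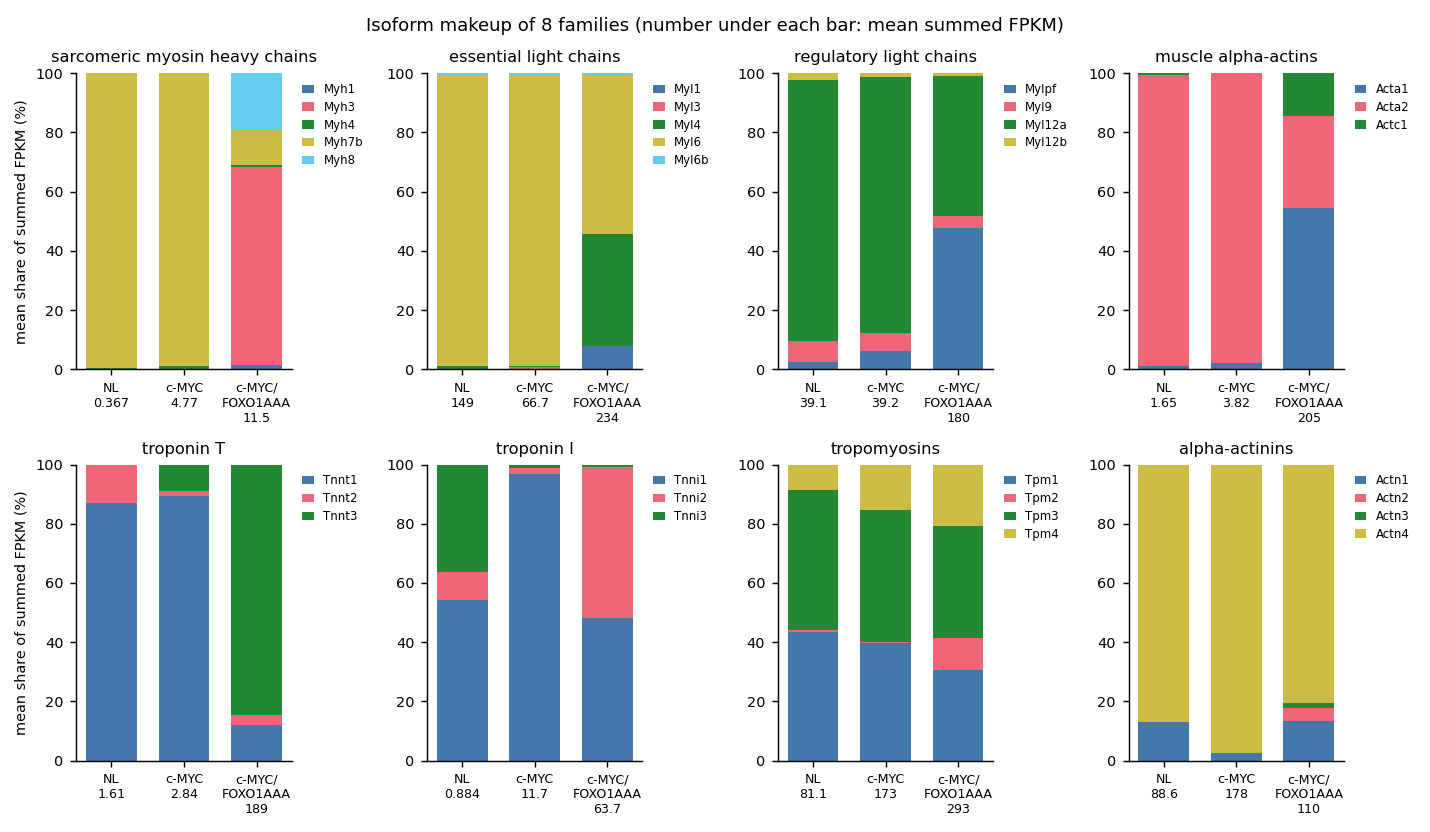
Mean share of the summed FPKM of 8 protein families taken by each isoform in NL, c-MYC and c-MYC/FOXO1AAA (n = 4, 3 and 3), with the mean summed FPKM of the family under each bar. Myh3 and Myh8 fill most of the sarcomeric heavy chain bar in c-MYC/FOXO1AAA where Myh7b fills those of NL and c-MYC, and Tnnt3 fills most of the troponin T bar there. Shares are of the genes analysed here, without Myh2, Myh6, Myh7, Myl2 and Myl7.

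Several other genes of the thick filament and M-band were higher in c-MYC/FOXO1AAA as well. Mybpc1, slow-type myosin-binding protein C, which trims crossbridge cycling and is expressed early in muscle development, was at 73.5, 58.3 and 45.3 FPKM in c-MYC/FOXO1AAA, had 1 read each in c-MYC 1 and 2, and had none in c-MYC 3 and NL. The 8330 reads against 2 gave a ratio of 3122 (95% counting interval 864 to 25785, log2 fold change 9.48 ± 0.29, limma adjusted p = 1.37e-08), the largest log2 fold change among the tested members. Myom2, an M-band protein, was at 12, 12.1 and 10.6 FPKM in c-MYC/FOXO1AAA with no read in c-MYC and 1 in NL, at least 161-fold higher than in c-MYC (6.20 ± 0.30, adjusted p = 1.5e-07). The Mybpc1 and Myom2 levels rest on lengths of 1876 and 744 bases where the longest transcripts have 3922 and 5075, with which their means would be 28.2 and 1.7 FPKM in place of 59 and 11.6. Myom1 was called in the same direction (5.05 ± 0.56, adjusted p = 5.83e-05). Myom3, the M-band protein of slow fibres, had 5, 2, 6 and 4 reads in NL, 34, 30 and 70 in c-MYC and 140, 191 and 76 in c-MYC/FOXO1AAA, at up to 1.15 FPKM. In the unfiltered fit it was higher in c-MYC than in NL (2.16 ± 0.40, adjusted p = 0.00344) and was not called between the tumour groups (1.17 ± 0.42, adjusted p = 0.263). Titin (Ttn), whose 106824-base length holds its FPKM low, carried 2619, 3030 and 1770 reads in c-MYC/FOXO1AAA, 0, 2 and 9 in c-MYC and 3 over NL. At 0.995, 0.95 and 0.845 FPKM it missed the filter, and in the unfiltered fit its log2 fold change was 8.62 ± 0.59 (adjusted p = 1.13e-06).

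Sarcomeric and smooth muscle alpha-actins form the thin filament. Acta1, skeletal alpha-actin, was at 120, 121 and 89.3 FPKM in c-MYC/FOXO1AAA, 0.0377, 0 and 0.301 FPKM in c-MYC (9 reads in all) and 1 read in NL. Actc1, cardiac alpha-actin and the form used by embryonic skeletal muscle, was at 27.8, 38.9 and 23.2 FPKM in c-MYC/FOXO1AAA with no read in c-MYC and 1 in NL. Both were read almost solely in the c-MYC/FOXO1AAA libraries. Their log2 fold changes against c-MYC were 9.46 ± 0.51 (limma adjusted p = 2.57e-07) and 8.51 ± 0.32 (adjusted p = 3.34e-08), the second being at least 848-fold in reads. The 250 bases before the start of each of these actin genes hold a CArG box. Those of Acta2, an alpha-actin gene also higher in c-MYC/FOXO1AAA, hold no match to it.

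Acta2, smooth muscle alpha-actin and the usual mark of activated stellate cells in liver, was at 1.98, 1.49, 1.73 and 1.25 FPKM in NL, 4.16, 1.52 and 5.44 in c-MYC and 41.5, 91.1 and 61 in c-MYC/FOXO1AAA. The NL and c-MYC ranges overlapped, and all c-MYC/FOXO1AAA libraries were above both (log2 fold change 4.20 ± 0.43 against c-MYC, limma adjusted p = 4.66e-05). The other smooth muscle genes moved less. Myl9 was not called between the tumour groups, nor were Myh11 and Lmod1 in the unfiltered fit. Myl9 was nevertheless higher with no overlap and was called at the same FPKM total (1.75, limma adjusted p = 0.0263). Myh11 was lower with no overlap (-1.10 ± 0.31). Tagln and Cnn1, further smooth muscle genes, were not analysed here. The alpha-actin sum was 1.65 ± 0.33 FPKM in NL, 3.82 ± 2.14 in c-MYC and 205 ± 40.9 in c-MYC/FOXO1AAA, where Acta1 gave 54.4% ± 8, Acta2 31.1% ± 8 and Actc1 14.5% ± 1.07 (SD, n = 3).

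Troponin T, which binds the complex to tropomyosin, was mostly of the fast form in c-MYC/FOXO1AAA. Tnnt3 (chr7:142498836-142516009), fast troponin T, was at 137, 196 and 148 FPKM there, at 0.319, 0 and 0.478 FPKM in c-MYC and unread in NL (log2 fold change 8.11 ± 0.29 against c-MYC, limma adjusted p = 2.6e-08). Tnnt1, slow troponin T, was at 20.3, 30.6 and 17.3 FPKM in c-MYC/FOXO1AAA against 2.55, 2.58 and 2.44 in c-MYC and 0.798 to 1.76 in NL (3.07 ± 0.29, adjusted p = 2.85e-05). Tnnt2, the cardiac and early embryonic form, was at 6.5, 7.01 and 5.55 FPKM with 1 read in each c-MYC library and 9 over NL (5.37 ± 0.30, adjusted p = 4.31e-07). All 3 troponin T genes were thus higher in c-MYC/FOXO1AAA.

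Tnnt3 made up 84.7% ± 1.64 of troponin T FPKM in c-MYC/FOXO1AAA, Tnnt1 11.9% ± 1.54 and Tnnt2 3.41% ± 0.501 (SD, n = 3). The length behind the Tnnt3 values is 342 bases, while its longest annotated transcript has 1079. With the longest transcript of each gene as the length, the shares were 68% ± 3.08 for Tnnt3 and 29.1% ± 3.1 for Tnnt1, so that the order held and the gap narrowed.

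Troponin I, the inhibitory subunit, came from its fast and slow genes in similar parts. Tnni2, the fast form, lies 54.4 kb from Tnnt3 and was at 24.9, 43.4 and 29.7 FPKM in c-MYC/FOXO1AAA, 0.568, 0.138 and 0.0709 FPKM in c-MYC and 1 read in NL (log2 fold change 6.46 ± 0.45, limma adjusted p = 1.73e-06). Tnni1, the slow form and the one that developing muscle uses, was at 31.5, 34.8 and 25.1 FPKM in c-MYC/FOXO1AAA, 22, 9 and 3.03 FPKM in c-MYC and 1.57, 0, 0.712 and 0.194 FPKM in NL. The c-MYC libraries spread over 3.03 to 22 FPKM, with a mean of 11.3 and of 6.01 without c-MYC 1. Tnni1 was higher in c-MYC than in NL (4.24 ± 0.89, adjusted p = 0.00318) and did not pass between the tumour groups (1.82 ± 0.95, adjusted p = 0.329), although those did not overlap. Shares in c-MYC/FOXO1AAA were 50.8% ± 6.1 for Tnni2, 48.2% ± 6.28 for Tnni1 and 1.01% ± 0.786 for cardiac Tnni3 (SD, n = 3). With the longest transcripts they were 61.8%, 36.8% and 1.43%.

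Troponin C was followed through Tnnc1 alone, since Tnnc2 was not analysed here, and Tnnc1 gave the opposite picture. Tnnc1, the slow and cardiac calcium sensor, was at 4.8, 3.05, 5.28 and 3.55 FPKM in NL, 54.7, 69.8 and 39.9 in c-MYC and 5.35, 6.29 and 4.17 in c-MYC/FOXO1AAA. Every c-MYC library stood far above all others, and the NL and c-MYC/FOXO1AAA ranges overlapped. It was higher in c-MYC than in NL (log2 fold change 3.66 ± 0.23, limma adjusted p = 6.44e-07) and fell from c-MYC to c-MYC/FOXO1AAA (-3.32 ± 0.25, adjusted p = 5.49e-06). The 2 comparisons share the c-MYC libraries. The interval of the difference from NL in c-MYC/FOXO1AAA was -0.18 to 0.86 on the log2 scale (0.34 ± 0.23, adjusted p = 1). Tnnc1 was the only slow gene with a mean over 50 FPKM in c-MYC, and among slow genes Tnnc1, Myh7b and Myl3 were all highest in c-MYC while Mybpc1, Tnnt1, Tnni1, Myom3 and Myoz2 had their highest mean in c-MYC/FOXO1AAA.

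**Figure D4:**
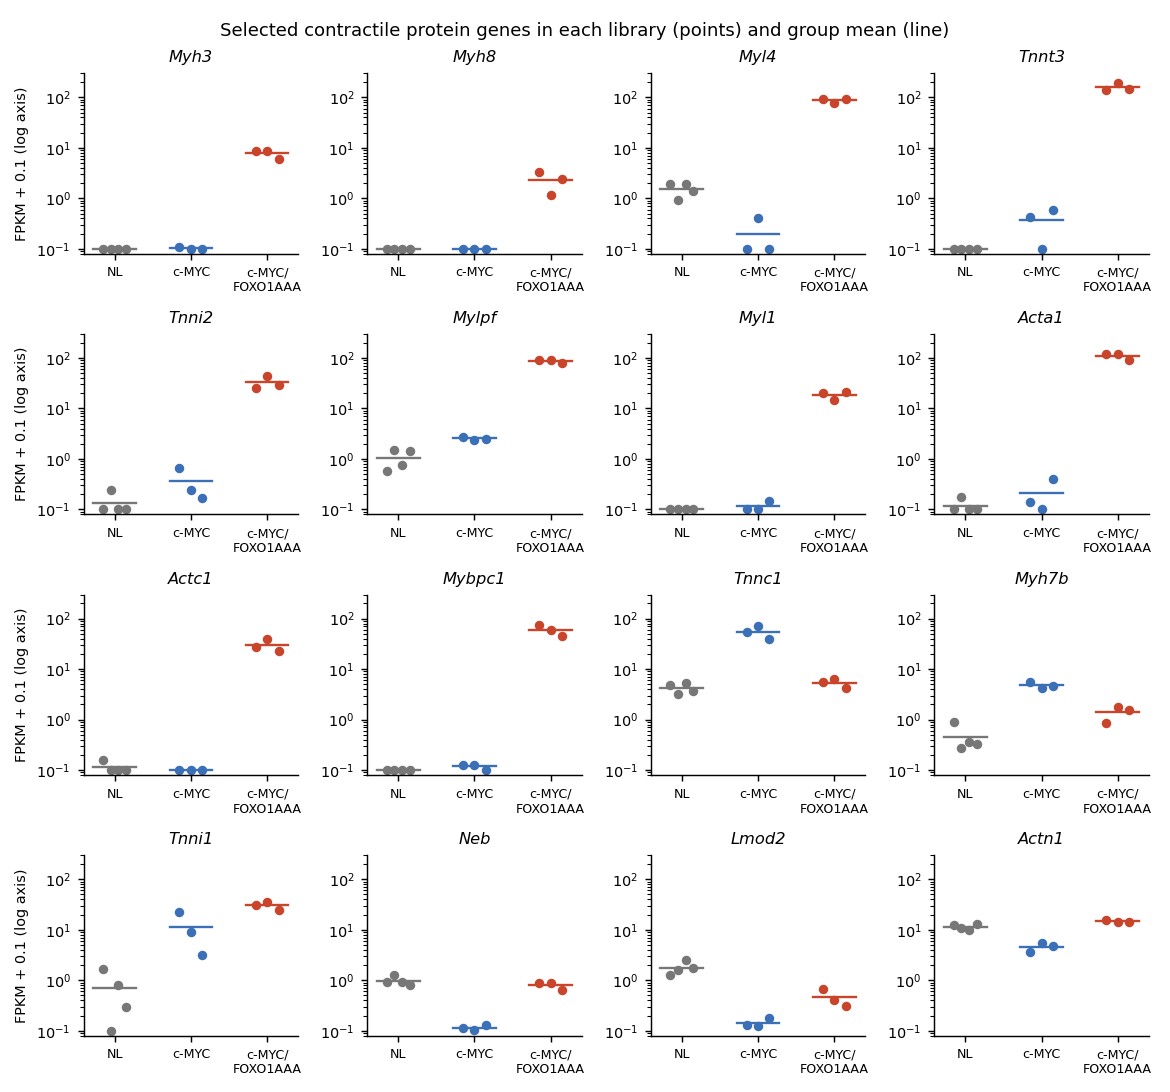
FPKM + 0.1 on a log axis for 16 genes in each library (points) with the group mean (line) in NL, c-MYC and c-MYC/FOXO1AAA (n = 4, 3 and 3). Acta1, Actc1, Mybpc1, Myh3, Myh8 and Myl1 sit at or near the bottom of the axis outside c-MYC/FOXO1AAA, Tnnc1 and Myh7b peak in c-MYC, and Neb, Lmod2 and Actn1 are lowest in c-MYC.

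Tropomyosins run along actin filaments in all cells, and different members rose at different steps. Tpm4, a non-muscle form, was at 7.7, 6.43, 6.93 and 7.33 FPKM in NL, 22.7, 27.3 and 29.1 in c-MYC and 63, 52 and 66.6 in c-MYC/FOXO1AAA, and was called in both steps (log2 fold changes 1.88 ± 0.12, limma adjusted p = 3.45e-06, and 1.20 ± 0.13, adjusted p = 0.00215). Tpm3, the most abundant tropomyosin and the source of both cytoskeletal and slow-muscle products, was at 33.3 to 45.2 FPKM in NL, 70.9, 88.9 and 71.9 in c-MYC and 109, 106 and 118 in c-MYC/FOXO1AAA. Tpm1 was at 34.5 to 36.6, then 59.7, 68.1 and 78.1, then 78.1, 93.9 and 98.4 FPKM. Both were higher in c-MYC than in NL (1.02 ± 0.12, adjusted p = 0.00648, and 0.95 ± 0.11, adjusted p = 0.0096) and were not called between the tumour groups. Tpm2, the form of slow and smooth muscle, was flat from NL (0.303 to 0.85 FPKM) to c-MYC (0.329 to 1.19) and at 25.1, 36 and 34.5 FPKM in c-MYC/FOXO1AAA (5.32 ± 0.46, adjusted p = 9.53e-06). Gene-level values do not separate the muscle and cytoskeletal transcripts that Tpm1 and Tpm3 both make.

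Tpm3-rs7 was at 3.32 to 3.96 FPKM in NL, 6.7, 8.58 and 6.06 in c-MYC and 8.13, 7.02 and 7.81 in c-MYC/FOXO1AAA. It followed Tpm3 from NL to c-MYC (log2 fold change 0.94 ± 0.14, limma adjusted p = 0.0321), a call lost without NL 2, NL 4 or c-MYC 2. Reads of near-identical genes may be split between them in counting, so its level is uncertain.

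Nebulin (Neb), a giant protein along the thin filament, and Lmod2, which helps to set its length, were present in normal liver and lowest in c-MYC. Neb carried 204, 245, 180 and 141 reads in NL, 6, 1 and 12 in c-MYC and 444, 528 and 235 in c-MYC/FOXO1AAA. At 0.699 to 1.16 FPKM in NL and 0.533 to 0.801 in c-MYC/FOXO1AAA it missed the filter, and in the unfiltered fit it was lower in c-MYC than in NL (log2 fold change -5.64 ± 0.47, adjusted p = 2.54e-06) and rose from c-MYC to c-MYC/FOXO1AAA (5.34 ± 0.50, adjusted p = 1.29e-05). Lmod2, the cardiac leiomodin, was at 1.15, 1.5, 2.44 and 1.64 FPKM in NL, 0.0276, 0.0269 and 0.0826 in c-MYC and 0.575, 0.305 and 0.206 in c-MYC/FOXO1AAA. It was lower in c-MYC than in NL (-4.03 ± 0.38, limma adjusted p = 1.02e-05). The partial return in c-MYC/FOXO1AAA (1.94 ± 0.41, adjusted p = 0.0143) rested on 54 reads against 5 and was lost without c-MYC/FOXO1AAA 1 (1.60, adjusted p = 0.0646). Lmod3 was called in the same 2 directions (-1.85 ± 0.34 and 4.46 ± 0.36), the first of which was lost at the same FPKM total (-0.92, adjusted p = 0.248).

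Tropomodulins cap the pointed end of the thin filament. Tmod3, the form found in most cells, was at 5.28 to 6.54 FPKM in NL, 9.32 to 11.5 in c-MYC and 14.3 to 15.9 in c-MYC/FOXO1AAA, with a call in c-MYC/FOXO1AAA versus NL (log2 fold change 1.36 ± 0.12, limma adjusted p = 7.24e-05) and, at the same FPKM total, in c-MYC versus NL (1.74, adjusted p = 5.36e-06). Tmod2, better known from neurons, had 164, 159 and 105 reads in c-MYC/FOXO1AAA and none elsewhere. Tmod1 had 36, 39 and 13 reads against 5 over c-MYC. Tmod4, the skeletal muscle form, was not called in any comparison, with 1.31 to 2.22 FPKM in NL, 0.427 to 1.07 in c-MYC and 0.866 to 2.01 in c-MYC/FOXO1AAA.

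Alpha-actinins crosslink actin at the Z-disc and in the cytoskeleton. Actn4, a cytoskeletal form, was at 91.3, 69, 72.3 and 76.2 FPKM in NL, 160, 203 and 157 in c-MYC and 85.7, 99.8 and 80.3 in c-MYC/FOXO1AAA, higher in c-MYC than in NL (log2 fold change 1.16 ± 0.13, limma adjusted p = 0.00189) and fell from c-MYC to c-MYC/FOXO1AAA (-0.96 ± 0.14, adjusted p = 0.0415). That fall of Actn4 was lost at the same FPKM total (-0.79, adjusted p = 0.248) and without NL 3, NL 4, c-MYC 2, c-MYC/FOXO1AAA 1 or c-MYC/FOXO1AAA 3, with an adjusted p of up to 0.15. Actn1, the other cytoskeletal form, moved in the opposite way, from 12.3, 10.8, 9.76 and 12.8 FPKM in NL to 3.53, 5.33 and 4.59 in c-MYC and 15.7, 14 and 14.3 in c-MYC/FOXO1AAA (-1.35 ± 0.15, adjusted p = 0.000715, then 1.72 ± 0.16, adjusted p = 0.000135). With libraries at the same FPKM total the fall of Actn1 in c-MYC was no longer called (-0.43, adjusted p = 0.952). Actn2, the sarcomeric form of all striated muscle, was at 5.37, 4.41 and 4.26 FPKM in c-MYC/FOXO1AAA with 6 reads over c-MYC (5.99 ± 0.36, adjusted p = 5.66e-07). Actn3, the fast-fibre form, was at 0.227, 0.221 and 0.397 FPKM in c-MYC and 2.69, 1.73 and 1.45 in c-MYC/FOXO1AAA (2.63 ± 0.39, adjusted p = 0.000939).

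Other Z-disc genes were higher in c-MYC/FOXO1AAA as well. Tcap (telethonin), which links titin to the Z-disc, was at 11.3, 20.9 and 15.2 FPKM in c-MYC/FOXO1AAA with 3 reads over c-MYC and 3 over NL (log2 fold change 6.53 ± 0.48, limma adjusted p = 2.39e-06). Myoz2 (calsarcin 1), the slow and cardiac form of a calcineurin-binding Z-disc family, was at 2.2, 2.44 and 1.55 FPKM in c-MYC/FOXO1AAA and unread elsewhere, at least 46.5-fold higher than in c-MYC (4.41 ± 0.28, adjusted p = 1.09e-06). Myoz1, the fast form, and Ldb3, a PDZ and LIM protein of the Z-disc, were called in the same direction (4.28 ± 0.48 and 4.96 ± 0.40). The fast and slow forms of the myozenin family thus rose together.

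Desmin (Des), the intermediate filament that ties Z-discs to one another and a mark of stellate cells in liver, was at 1.79, 2.14, 1.76 and 2.83 FPKM in NL, 1.1, 0.473 and 1.06 in c-MYC and 57.4, 61.5 and 69.2 in c-MYC/FOXO1AAA. The 3 groups did not overlap. The rise between the tumour groups (log2 fold change 6.18 ± 0.30, limma adjusted p = 1.29e-07) was far larger than the fall from NL to c-MYC (-1.31 ± 0.28, adjusted p = 0.0282), and that fall was lost at the same FPKM total (-0.38, adjusted p = 0.913), without NL 4 or without c-MYC 2. Nebl, the cardiac nebulin relative, whose FPKM rest on 709 of up to 8079 bases, had 78, 16 and 70 reads in c-MYC/FOXO1AAA, so that c-MYC/FOXO1AAA 2 again had the fewest, and Tnni3 had 9, 9 and 19.

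**Figure D5:**
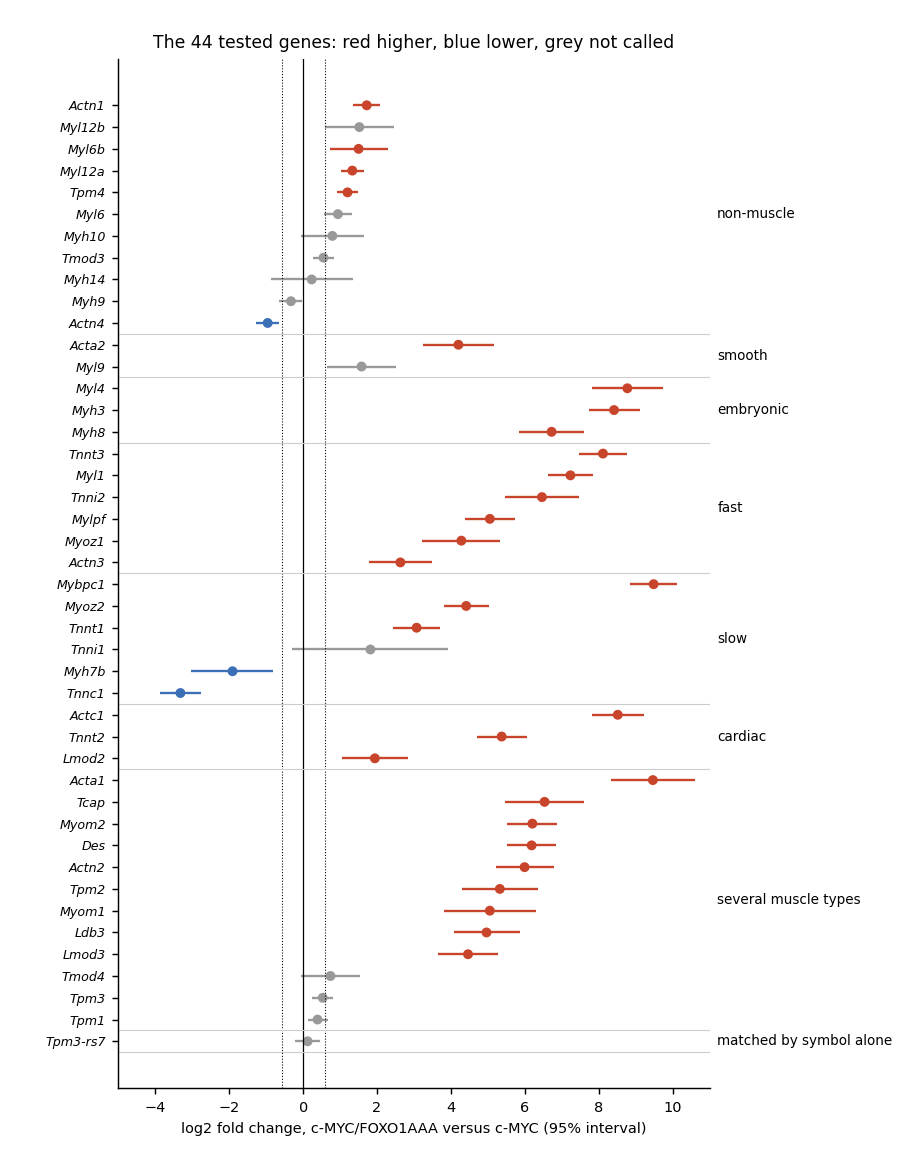
Log2 fold change of the 44 tested genes in c-MYC/FOXO1AAA versus c-MYC with its 95% interval, in classes, with dotted lines at a change of 1.5-fold. The embryonic, fast, cardiac and most shared muscle genes lie to the right, up to 9.48 for Mybpc1, while Tnnc1, Myh7b and Actn4 lie to the left and the non-muscle genes lie between -0.96 (Actn4) and 1.72 (Actn1).

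Within the c-MYC/FOXO1AAA group the 3 libraries were alike in their members (Pearson's r of log2 values over the 56 genes 0.962 to 0.982, across genes, which are not independent replicates). Library 2 had the highest levels of Acta2, Myl9, Tnni2, Tnnt3, Tnnt1, Tcap, Myoz1 and Myom1 and the lowest of Myh8, Myh1, Myh4, Nebl, Myl1 and Myl4. For Myh8 this was 1.07 FPKM against 3.24 and 2.34, and for Acta2 it was 91.1 FPKM against 41.5 and 61. Leaving this library out left 28 members higher and 3 lower than in c-MYC.

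Proteins that build and hold the sarcomere were followed in a list of 34 chaperones, Z-disc and M-band partners, of which 32 had values and 22 were tested. In c-MYC/FOXO1AAA versus c-MYC, 16 were higher and none lower, against 15.9% and 12.7% of all tested genes. The limit that the filter sets on such counts holds here too. The median log2 fold change was 4.42 over the 32. Trim55 and Trim63 (MuRF2 and MuRF1), ubiquitin ligases of the M-band, the second a known target of FOXO factors in wasting muscle, were in c-MYC/FOXO1AAA at 37 ± 12.3 and 11.6 ± 2.11 FPKM (SD, n = 3), with no read of Trim55 and 0.0192 FPKM of Trim63 in c-MYC (7.26 ± 0.27, limma adjusted p = 3.27e-08, and 7.20 ± 0.33, adjusted p = 8.83e-08). In c-MYC versus NL, 3 of the 22 were higher and 6 lower, against 24.5% and 23.6% of all tested genes. Csrp3 (muscle LIM protein), named after its values were seen, was at 54.7 ± 6.8 FPKM in NL (SD, n = 4), at 0.0803 ± 0.0355 in c-MYC tumours and at 1.93 ± 1.14 in c-MYC/FOXO1AAA tumours (SD, n = 3 each), and so, like Neb and Lmod2, was lowest in c-MYC.

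A second list held 28 myosin light chain kinases, phosphatase subunits and actin regulators, of which 25 had values and 23 were tested. In c-MYC/FOXO1AAA versus c-MYC 5 were higher and 1 lower, against 15.9% and 12.7% of all tested genes, with a median of 0.16 over the 25. Mylk2, the skeletal muscle light chain kinase, in c-MYC/FOXO1AAA was at 4.75 ± 0.973 FPKM (SD, n = 3), against 0.00615 in c-MYC (log2 fold change 6.70 ± 0.30, limma adjusted p = 8.5e-08), and Mylk4, another kinase of that family, at 5.67 ± 0.551 with no read in c-MYC (5.12 ± 0.24, adjusted p = 1.29e-07). Mylk, the smooth muscle and non-muscle kinase, was at 61.3 ± 3.97 FPKM in NL, 14.7 ± 1.9 in c-MYC and 5.31 ± 2.33 in c-MYC/FOXO1AAA (-1.55 ± 0.28 between the tumour groups, adjusted p = 0.0126). Kinase isoforms therefore changed in opposite directions between the tumour groups, the skeletal ones up and the smooth muscle one down. Most of the ubiquitous regulators, such as Rock1 (-0.19 ± 0.14) and Rhoa (-0.02 ± 0.10), were not called.

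Markers of cell types that could bring contractile genes into a liver sample were summed beside them. All 7 tested myogenic genes, with 8 of 10 listed genes having values, rose from c-MYC to c-MYC/FOXO1AAA, against 15.9% of all tested genes. The sum of the list was 0.237 to 0.39 FPKM in NL, 0.0711 to 0.16 in c-MYC and 38.3 to 58.7 in c-MYC/FOXO1AAA. At these levels its genes could pass the filter of 1 FPKM only through c-MYC/FOXO1AAA, so the count that rose was largely set by the filter. Myog, the factor that starts fusion and the sarcomere programme, was at 25.8 ± 8.96 FPKM (SD, n = 3), and Myf5, an early determination factor, at 4.79 ± 1.08 (log2 fold changes 8.29 ± 0.30, limma adjusted p = 2.6e-08, and 6.39 ± 0.28, adjusted p = 7.96e-08). Myod1, Myf5, Myf6 and Myog had no read in any NL or c-MYC library. Pax3 and Pax7 were not analysed here.

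Most tested adult fibre markers rose too, though not all did. Of 12 listed, 10 had values and 9 were tested. From c-MYC to c-MYC/FOXO1AAA 6 rose and 1 fell, against 15.9% and 12.7% of all tested genes. A marker unread outside c-MYC/FOXO1AAA could be tested only through that group, which limits this count. The median log2 fold change between the tumour groups was 3.75 over the 10. Sln and Atp2a1, of calcium reuptake, in c-MYC/FOXO1AAA were at 9.86 ± 2.3 and 6.02 ± 0.491 FPKM (SD, n = 3; log2 fold changes 6.76 ± 0.27, limma adjusted p = 4.37e-08, and 6.38 ± 0.66, adjusted p = 2.8e-05). Pgam2, muscle phosphoglycerate mutase, was lower (-2.47 ± 0.69, adjusted p = 0.039), at 51.1 ± 41 FPKM in c-MYC and 7.27 ± 0.469 in c-MYC/FOXO1AAA, a call lost without c-MYC 1 (-1.85, adjusted p = 0.151), c-MYC 2, NL 4 or any c-MYC/FOXO1AAA library and at the same FPKM total. Through Pgam2 and Eno3 the sum of this list was 5.82 to 12.9 FPKM in NL, 45.7 to 141 in c-MYC and 78 to 97.3 in c-MYC/FOXO1AAA, with overlapping tumour groups. Myoglobin (Mb) was at 0 in NL and c-MYC, and the highest c-MYC library of this list, c-MYC 1, was also that of Tnni1. Of 8 cardiac markers 4 had values, the 1 tested was not called between the tumour groups, and their sum was 1.69 to 1.76 FPKM in c-MYC/FOXO1AAA, 0.37 to 0.437 in c-MYC and 0.955 to 2.03 in NL.

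Among smooth muscle, stellate cell and pericyte markers, 10 of 12 had values and 4 of 10 tested rose from c-MYC to c-MYC/FOXO1AAA, with none called in the other direction. Of all tested genes, 15.9% were higher and 12.7% lower there. Their sum was 89.1 to 114 FPKM in NL, 16 to 37.6 in c-MYC and 254 to 356 in c-MYC/FOXO1AAA, where Dcn alone gave 312, 178 and 218 FPKM of it in libraries 1, 2 and 3. Reln and Dcn, a stellate cell product and a matrix proteoglycan, had log2 fold changes of 6.16 ± 0.52 (limma adjusted p = 6.5e-06) and 5.90 ± 0.44 (adjusted p = 3.89e-06), while Lrat, the defining retinoid enzyme of quiescent stellate cells, stood at 3.83 ± 0.429 FPKM in NL, 0.0746 ± 0.058 in c-MYC and 0.255 ± 0.154 in c-MYC/FOXO1AAA with no call (1.64 ± 0.55, adjusted p = 0.128). Library by library, the sum in c-MYC/FOXO1AAA was highest in library 1 (356 FPKM) and lowest in library 2 (254 FPKM), as was Dcn. Acta2 was lowest in library 1 and highest in library 2, and a sum led by Dcn does not show the order of the other markers. The part of these cells in the levels of Acta2, Des and Tpm2 was not tested.

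The remaining lists moved less evenly in c-MYC/FOXO1AAA versus c-MYC, where 15.9% of all tested genes were higher and 12.7% lower. Each held few tested genes, so their counts say little beside these shares. Mesothelial markers had 2 of 2 tested higher, Msln and Upk3b, with sums of 2.18 to 5.89 FPKM in NL, 0.146 to 0.481 in c-MYC and 3.98 to 9.5 in c-MYC/FOXO1AAA, the call of Upk3b (2.39, limma adjusted p = 0.0333) being lost without c-MYC 2 (1.95, adjusted p = 0.131), c-MYC/FOXO1AAA 2 or c-MYC/FOXO1AAA 3. Endothelial markers had 1 of 6 higher (Cdh5), macrophage markers 1 higher (Clec4f, a call lost without c-MYC/FOXO1AAA 1 or 2) and 1 lower (Cd5l) of 6, lymphocyte markers 1 of 2 higher (Cd79a), cholangiocyte markers 1 higher (Krt19) and 1 lower (Epcam) of 3, and hepatocyte markers 2 higher (Tat and Apoc3) and 3 lower of 6. Of 4 erythroid markers 3 were tested and did not pass, with sums of 122 to 219 FPKM in c-MYC and 204 to 491 in c-MYC/FOXO1AAA. The part of any of these cell types in the levels of the contractile genes was not tested.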

How the data were processed

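RNA sequencing of mouse liver was analysed in 10 libraries (4 NL, 3 c-MYC and 3 c-MYC/FOXO1AAA), grouped by the sample titles. The authors deposited log2 FPKM for each gene and library, made with edgeR from reads counted per Ensembl gene, with 2 reads, scaled by library size, added before the logarithm. The submitters' processing notes name FastQC 0.11.7 and GRCm38, and the aligner and counter are not given in the sources used here. Whole reads and 1 gene length were recovered from the deposited values for 16692 of 16697 genes (tolerance 0.001 reads), and 97.7% of 16623 genes matched to GENCODE had the length of an annotated transcript. A further 372 entries without a symbol or value were left out. Printed FPKM were computed from those reads with no prior count.

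The deposited log2 values were tested with limma 3.58.1 (treat, fold 1.5, trend and robust, R 4.3.3) over all 3 groups, for genes at 1 FPKM or more in at least 3 libraries, with Benjamini-Hochberg adjustment over 14017 genes. The authors' own test was edgeR on counts, and limma stands in its place because the deposited unit is a log2 value. On simulated data with 13504 genes for c-MYC/FOXO1AAA versus c-MYC, all 50 genes changed 4-fold and 1 of 50 changed 2-fold were called. Depth was 13123719 to 20547746 reads in listed genes. Bounds use 3 reads over the group and intervals are exact at 95%.

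Members and lists were chosen with earlier results of these data known. Values of every library are given for the up to 4 called members of a class with the largest change in each tumour contrast and a mean of 1 FPKM, and for the member of highest mean. Members and other genes described singly outside this rule were chosen after their values were seen. Alternatives were the pseudocount, filter, scaling, fold threshold, groups fitted, a replicate block, voom on recovered reads, each library left out and, chosen after seeing the data, the longest transcript as the length for isoform shares and for the levels of Mybpc1 and Myom2.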

Additional observations from a re-analysis of the deposited data

Results flagged for a closer look

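Of 28 groups of 4 libraries tested for a library far from the others, 1 stood out, where chance alone gives about 1 in 20. Myh7b in NL was at 0.779 FPKM in NL 1 and at 0.172 to 0.266 FPKM in the other 3 libraries, so that the gap to the nearest library was 0.845 of the whole range. Without NL 1 the call of Myh7b in c-MYC versus NL remained, and its fall in c-MYC/FOXO1AAA versus c-MYC had an adjusted p of 0.00754 in limma in place of 0.042. The cause was not tested.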

How the results depend on the processing

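With libraries at the same FPKM total, 22 members in place of 10 were higher and 3 in place of 7 lower in c-MYC than in NL, 1 in place of 3 fell from c-MYC to c-MYC/FOXO1AAA, and 1 in place of 2 was lower in c-MYC/FOXO1AAA than in NL. That scaling turned the sign of 8 member differences, of which it called 2, Myl6 in c-MYC/FOXO1AAA versus NL (0.87 on the log2 scale, limma adjusted p = 0.0456) and Myl12a in c-MYC versus NL (0.91, adjusted p = 0.0175). The others were Tcap, Myom2, Myl12b, Myl9 and Actc1 in c-MYC versus NL and Tmod4 in c-MYC/FOXO1AAA versus NL. Called genes were 78.8% higher under it in c-MYC versus NL, against 51% as deposited. With no fold threshold 17 members were higher in c-MYC than in NL. A mean of at least 5 FPKM left 25 members to test, of which 4 were lower in c-MYC than in NL, 15 rose from c-MYC to c-MYC/FOXO1AAA, 20 rose from NL to c-MYC/FOXO1AAA and 0 fell, in limma. Leaving out each library in turn gave 9 to 11 higher and 6 to 8 lower in c-MYC versus NL, 28 to 30 and 1 to 3 between the tumour groups, and 32 to 34 and 2 in c-MYC/FOXO1AAA versus NL. Libraries with the same replicate number did not deviate together (Pearson's r of their deviations from the group means, across genes, -0.040 to 0.027), so the numbers were not taken as pairs. With the replicate block the counts were 9 and 6, 28 and 1, and 32 and 2 in the same order. With voom on the recovered reads they were 8 and 7, 30 and 3, and 33 and 2. Of the 90 fold changes of members named by rule, 0 to 6 lost their call under any 1 setting. Depth limits genes near 0, where fold changes are bounds or rest on few reads, and 3 libraries a tumour group limit small changes. With the longest transcript as the length, chosen after seeing the data, shares moved to 21% (Myl4), 65.8% (Mylpf), 61.8% (Tnni2) and 68% (Tnnt3).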
